A study of Mus musculus with 11 samples.

Results

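The skeletal lineage transcription factors described here are 10 genes, namely Sox9, Sox5, Sox6, Runx2, Runx3, Sp7, Dlx5, Msx2, Prrx1 and Twist1. They form a list of names of regulators of cartilage, bone and limb mesenchyme. The list itself uses no measured value, but it was chosen with earlier results of these data known. All 10 were found by gene name in each of the 3 deposited tables, among 16576 distinct gene identifiers, and all 10 passed the filter on low counts in every comparison. Stromal cells of mouse bone marrow were isolated by flow sorting and their polyA RNA was sequenced, to ask how they vary with age, with the surface protein Sca1 and when the receptor gene Igf1r is deleted. There were 11 samples in 4 groups. Adult wild-type cells were sorted as PDGFRa+CD51+ (3 samples). Igf1r knockout cells were sorted as PDGFRa+Sca1+ and titled Cre-positive (3 samples). Wild-type cells labelled PDGFRa+Sca1- (2 samples, numbered 2 and 3) and Cre-negative wild-type cells labelled PDGFRa+Sca1+ (3 samples) were both labelled postnatal, and the series calls them perinatal. The sources used here name neither the driver of Cre nor exact ages, and any effect of Cre itself cannot be told apart from the deletion. No label ties a sample to its own animal. The p-values thus rest on sample-to-sample spread that may be technical.

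Sox9 is the master regulator of cartilage, and its partners Sox5 and Sox6 help it to switch on genes of the cartilage matrix. Runx2 commits mesenchymal cells to bone and also drives late cartilage maturation, Sp7 (osterix) acts downstream of it in osteoblasts, and Dlx5 and Msx2 are homeodomain factors that act around these steps. Runx3 is a relative of Runx2 with roles in maturing cartilage and also in blood cells, while Prrx1 and Twist1 mark early limb and craniofacial mesenchyme, where Twist1 can hold Runx2 protein back.

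Total counts per library ran from 13412316 to 23782217, and a count of 3 corresponded to 0.126 to 0.224 CPM, which are counts scaled to a common library total, a floor that covers counting error only. Wild-type libraries 2 and 3 labelled Sca1-positive served in all 3 comparisons, with equal counts for all 10 factors, as labelled Sca1-positive, as control and as perinatal libraries. The comparisons therefore share those libraries and are not independent. Library 1 carried a single sample label but was a different library in the knockout table (control 1) and in the age table (perinatal 1), with equal counts for 1.72% of genes and for 0 of the 10 factors. Ly6a, the gene of Sca1, had 10159 and 9112 counts in the libraries labelled Sca1-negative, against 239 and 145 counts in the libraries labelled Sca1-positive, so the transcript ran against the labels. Ly6a had 17051, 12936 and 22125 counts in knockout libraries 1, 2 and 3, against 8624, 239 and 145 counts in control libraries 1, 2 and 3. Igf1r had 182, 80 and 77 counts in the knockout libraries, against 599, 548 and 444 counts in the controls, lower in all 3 knockouts, with a log2 fold change of -2.55 that missed the threshold (edgeR adjusted p = 0.0816). Groups are called by their labels throughout.

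In cells labelled Sca1-negative, 6 of the 8 cartilage and bone factors were lower than in cells labelled Sca1-positive, and the mesenchyme factors were not called. Sox9, Sox6, Runx2, Runx3, Sp7 and Dlx5 fell, by 1.80 to 4.80 on the log2 scale, while Sox5, Msx2, Prrx1 and Twist1 did not pass the test. With edgeR's quasi-likelihood test at an adjusted p under 0.05, 6 of the 10 factors were called lower and 0 higher, where 2.79% of the 13529 genes tested were called lower, 1.63% higher and 4.41% in all. The same 6 passed at an unadjusted p under 0.05, beside 18.9% of genes, and DESeq2 also called 6 lower, beside 4.20% of genes lower and 7.23% in all. The groups, of 2 libraries each, did not overlap on TMM-scaled CPM for 7 factors, beside 50.3% of all genes tested. The median log2 change over the 10 factors was -1.89, against 0.01 over all genes tested. Control 1 and perinatal 1 also carried the Sca1-positive label but were not in this comparison. Control 1 had 108 CPM of Sox9, 4.09 of Runx2, 0.740 of Runx3 and 0.986 of Sp7. Perinatal 1 had 83.9, 4.86, 1.62 and 2.97 CPM of the same genes. These levels were closer to cells labelled Sca1-negative, so the contrast rests on labelled Sca1-positive libraries 2 and 3. In bulk samples such as these, fewer cells of a type and less RNA per cell cannot be told apart.

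**Figure D1:**
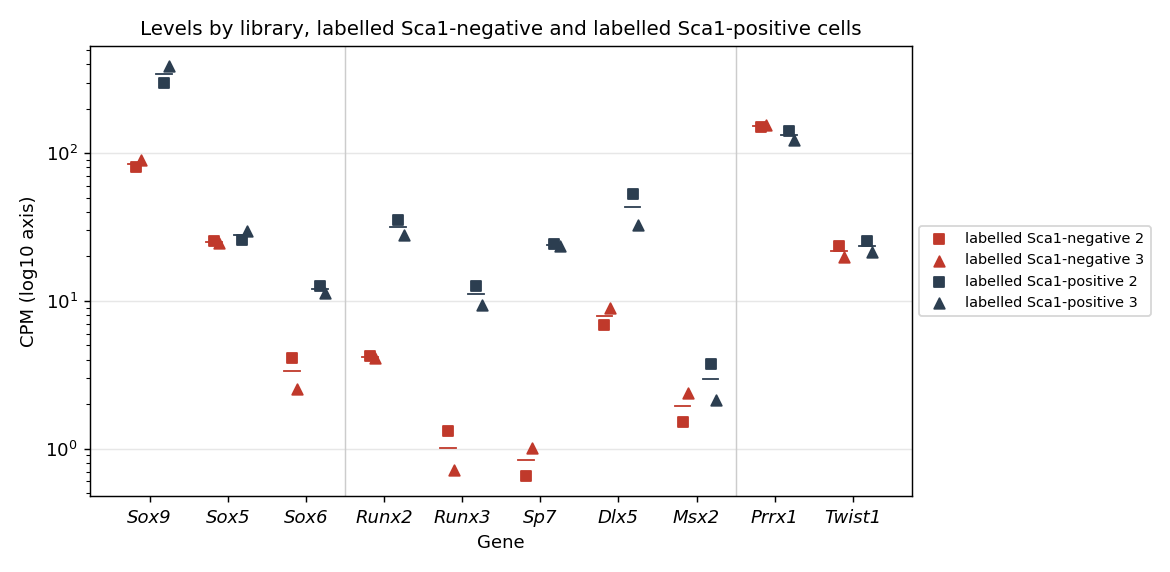
CPM of each factor (vertical axis, log10 scale) in the 2 libraries labelled Sca1-negative (red) and the 2 labelled Sca1-positive (blue), with horizontal bars at the group means. Sox9, Sox6, Runx2, Runx3, Sp7 and Dlx5 separate, with every red point below every blue point, while Sox5, Msx2, Prrx1 and Twist1 lie close together.

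Of the Sox trio, Sox9 (chromosome 11, 112782224 to 112787760, plus strand, build mm10 as in all coordinates here) stood at 80.5 and 89.3 CPM in libraries 2 and 3 labelled Sca1-negative, against 296 and 386 CPM in libraries 2 and 3 labelled Sca1-positive. Both libraries labelled Sca1-negative lay below both labelled Sca1-positive, with a log2 fold change of -1.98 (SE 0.22, edgeR adjusted p = 0.00726). Sox6 (chromosome 7, 115470872 to 116038796, minus strand) had 4.13 and 2.53 CPM in cells labelled Sca1-negative and 12.6 and 11.3 CPM in cells labelled Sca1-positive. Again the groups did not overlap, and the log2 fold change was -1.80 (SE 0.31, edgeR adjusted p = 0.0304). Sox5 (chromosome 6, 143828425 to 144781977, minus strand) was not called, with 25.6 and 24.8 CPM in cells labelled Sca1-negative and 25.8 and 29.8 CPM in cells labelled Sca1-positive. On TMM-scaled CPM its groups overlapped, and its log2 fold change of -0.11 had a 95% interval of -0.57 to 0.35 (edgeR adjusted p = 0.811), so a change the size of that of Sox9 or Sox6 lay outside the interval. Whether Sox5 differed from Sox9 or Sox6 in its change was not tested. Exons of Sox5 overlap those of the antisense gene Sox5os1, and no source used here states whether counting used strand, so reads of the pair cannot be told apart.

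Runx2 (chromosome 17, 44495987 to 44814797, minus strand) had 4.26 and 4.12 CPM in cells labelled Sca1-negative, against 35.3 and 28.0 CPM in cells labelled Sca1-positive. The libraries labelled Sca1-negative were the low ones, without overlap, and the log2 fold change was -2.88 (SE 0.23, edgeR adjusted p = 0.00329). Runx2 shares exon positions with the antisense gene Runx2os1, with the same limit as for Sox5. Runx3 (chromosome 4, 135120652 to 135177990, plus strand) had 1.31 and 0.723 CPM in cells labelled Sca1-negative and 12.7 and 9.41 CPM in cells labelled Sca1-positive, from 20 and 10 counts in cells labelled Sca1-negative and 220 and 136 counts in cells labelled Sca1-positive. The groups did not overlap, and the log2 fold change was -3.38 (SE 0.38, edgeR adjusted p = 0.00744). The pair is known to bind a shared short motif, and the letters TGTGGT, or ACCACA on the other strand, were found upstream of a start site of both genes.

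Sp7 (chromosome 15, 102356606 to 102367182, minus strand) had the largest change of the 10. It stood at 0.656 and 1.01 CPM in cells labelled Sca1-negative, which are 10 and 14 counts, against 24.1 and 23.5 CPM in cells labelled Sca1-positive. The groups were far apart, at 0.841 ± 0.234 scaled CPM in cells labelled Sca1-negative and 23.5 ± 0.0380 in cells labelled Sca1-positive (SD, n = 2 each), which gave a log2 fold change of -4.80 (SE 0.30, edgeR adjusted p = 0.00169). By size it ranked 53 among the changes of all genes tested. Dlx5 (chromosome 6, 6877805 to 6882085, minus strand) had 6.89 and 8.89 CPM in cells labelled Sca1-negative and 53.2 and 32.8 CPM in cells labelled Sca1-positive. It was lower in both libraries labelled Sca1-negative, by a log2 fold change of -2.41 (SE 0.29, edgeR adjusted p = 0.00824). Msx2 (chromosome 13, 53466884 to 53473074, minus strand) had 1.51 and 2.39 CPM in cells labelled Sca1-negative and 3.75 and 2.14 CPM in cells labelled Sca1-positive. Its groups overlapped, and the 95% interval of its log2 fold change of -0.58 ran from -1.62 to 0.47 (edgeR adjusted p = 0.543).

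The early mesenchyme factors were not called. Prrx1 (chromosome 1, 163245119 to 163313710, minus strand) had 150 and 155 CPM in cells labelled Sca1-negative and 141 and 123 CPM in cells labelled Sca1-positive. The libraries labelled Sca1-negative were slightly higher without overlap, but the log2 fold change of 0.24 (95% interval -0.18 to 0.67) missed the threshold (edgeR adjusted p = 0.529). Twist1 (chromosome 12, 33957671 to 33959829, plus strand) had 23.7 and 19.8 CPM in cells labelled Sca1-negative and 25.6 and 21.3 CPM in cells labelled Sca1-positive. Its groups overlapped, with a log2 fold change of -0.07 (95% interval -0.57 to 0.43, edgeR adjusted p = 0.887).

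The windows with the Runx letters are shown because the Runx genes changed together here, and Sox6, which also fell, is set beside them. Each is 30 bases of the mouse genome from RefSeq (GRCm38.p6), read 5′ to 3′ on the strand of the gene, with TGTGGT or ACCACA in capitals. They lie at chr17:44814690-44814719 on the minus strand (Runx2), at chr4:135120499-135120528 on the plus strand (Runx3), and at chr7:115824786-115824815 and chr7:115846186-115846215 on the minus strand (Sox6, upstream of different start sites).
Runx2: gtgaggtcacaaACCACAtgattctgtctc
Runx3: tctggtccctcaACCACAgaACCACAaggc
Sox6, first window: actgtgaggccgACCACAaagctccactgt
Sox6, second window: tactccctcctcTGTGGTgtgaatgtgcaa
The first capital letter stood 80 bases before the start site for Runx2, 134 for Runx3, and 93 and 63 for the Sox6 windows. The letters were searched on both strands in the 250 bases before each start site, and 14.0% of 32851 RefSeq promoters held them. That share is per promoter, so a match is likelier for a gene with several entries. Letters of other factor families were searched too and are not listed. Among them, the Sox letters ACAAAG, held by 16.5% of promoters, overlapped ACCACA in the first Sox6 window. Of the 10 factors, 7 had a promoter entry, with 13 entries in all, and Sox9, Sp7 and Dlx5 had none. The letters were absent from the other Runx3 entry, the other Sox6 entries and the entries of Msx2, Prrx1, Sox5 and Twist1. The Runx2 window lies inside the gene bounds given above, which end at 44814797. A match describes the letters and is not evidence of binding.

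On the authors' TPM values, which are divided by gene length and allow genes to be ordered, the leading factor differed between the groups. In cells labelled Sca1-negative the order began with Prrx1 at 48.3 ± 9.83 TPM, followed by Sox9 at 35.8 ± 4.66 and Twist1 at 27.8 ± 3.57 TPM (SD, n = 2), and ended with Sp7 at 0.393 ± 0.135 and Runx3 at 0.367 ± 0.139 TPM, whose ranges overlapped. In cells labelled Sca1-positive, Sox9 led at 153 ± 31.0 TPM, ahead of Dlx5 at 54.4 ± 17.4 and Prrx1 at 50.2 ± 3.81 TPM (SD, n = 2), and the ranges of Dlx5 and Prrx1 overlapped. Sp7, at 11.9 TPM in both libraries labelled Sca1-positive, overlapped there with Sox5, which had 11.4 ± 7.04 TPM (SD, n = 2). The spread of Sox5 was not in its counts, which were 446 and 431 in libraries 2 and 3. The count carried by 1 TPM, which depends on the transcript length used, was 1.47 and 0.682 there for Sox5, relative to the group mean.

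Targets of these factors were counted from lists compiled with earlier results of these data known. All 15 cartilage matrix genes listed as targets of the Sox trio were called lower in cells labelled Sca1-negative, beside 2.79% of all genes tested. Their median log2 change was -3.92, against 0.01 over all genes. Among them, Col9a1, a cartilage collagen chain, was at 10.1 ± 0.838 CPM in cells labelled Sca1-negative and 271 ± 27.3 CPM in cells labelled Sca1-positive (SD, n = 2 each). Cnmd, which encodes chondromodulin, was at 47.1 ± 4.09 CPM in cells labelled Sca1-negative and 421 ± 12.8 CPM in cells labelled Sca1-positive. Of 16 bone genes listed as Runx2 and Sp7 targets, 12 were called lower and 0 higher, beside 2.79% and 1.63% of all genes. Their median log2 change was -3.87. Spp1, the bone matrix protein osteopontin, was at 69.4 ± 23.9 CPM in cells labelled Sca1-negative and 4445 ± 101 CPM in cells labelled Sca1-positive (SD, n = 2 each), and Ifitm5, an osteoblast membrane protein, had a log2 fold change of -3.21 (SE 0.20, edgeR adjusted p = 0.00169).

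Relatives of the 10 factors were mostly not called. The lists held 8 tested relatives in the Sox family, 12 partners and modulators of Runx proteins and 9 relatives of the Dlx, Msx, Prrx and Twist genes. Of these, 0 were called in either direction by edgeR, beside 4.41% of all genes tested. In lists this short, 0 is near that share and does not show that the relatives were unchanged. At an unadjusted edgeR p under 0.05 there were 3 in each list, beside 18.9% of genes. Of 19 other bone and cartilage factors, 6 fell and 0 rose, beside 2.79% of genes called lower and 1.63% higher. The tendon factors Scx and Mkx also fell, with log2 fold changes of -1.97 and -2.43, which makes 2 of the 3 tendon factors tested. Erythroid transcripts were also lower in sum, with levels over 9 genes of 318 to 960 CPM in cells labelled Sca1-negative and 1302 to 1667 CPM in cells labelled Sca1-positive, and 0 of 9 called. The osteoclast list had 1 of 3 genes called lower. Summed macrophage markers overlapped between the groups, at 27.9 to 45.3 CPM in cells labelled Sca1-negative and 29.5 to 38.7 CPM in cells labelled Sca1-positive. The part of other cells in the change of the 10 factors was not tested.

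In Igf1r knockout cells 0 of the 10 factors were called with edgeR, and the control libraries differed widely among themselves. Sox9, Sox6, Runx2, Runx3, Sp7, Dlx5 and Prrx1 reached an unadjusted p under 0.05, which makes 7 of 10, beside 21.8% of the 13590 genes tested. At an adjusted p under 0.05, 0 of 10 were called, where 0.0368% of genes were called, all of them lower. DESeq2 called 5 of the 10, all lower (Sox9, Sox6, Runx2, Sp7 and Dlx5), beside 3.68% of genes called lower and 6.97% in all. Groups did not overlap on TMM-scaled CPM for 5 factors, beside 29.0% of genes. The median log2 change of the 10 was -2.01, and that of all genes tested was -0.03. With the replicate number as a block, edgeR called 0 factors and 0 genes.

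**Figure D2:**
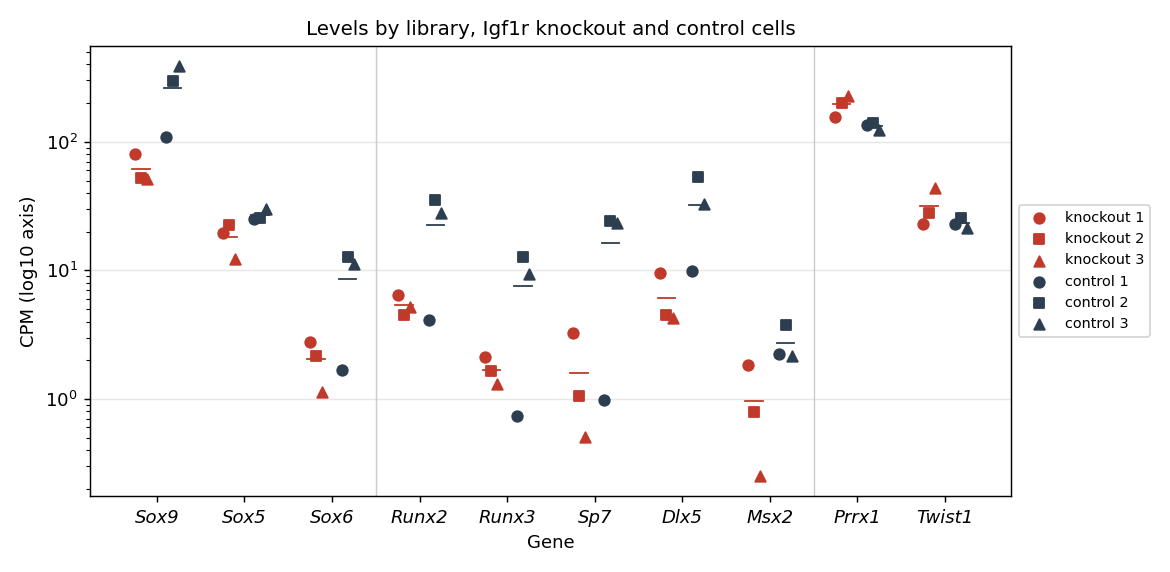
CPM of each factor (vertical axis, log10 scale) in knockout libraries (red) and control libraries (blue) 1, 2 and 3, with horizontal bars at the group means. For Sox6, Runx2, Runx3 and Sp7, control 1 lies within or below the knockout points, apart from controls 2 and 3.

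Sox9 was at 80.2, 52.5 and 51.5 CPM in knockout libraries 1, 2 and 3, against 108, 297 and 386 CPM in controls 1, 2 and 3. All 3 knockouts lay below all 3 controls, with control 1 closest to them, and the log2 fold change was -2.06 (SE 0.43, edgeR adjusted p = 0.176). Sox5 had 19.5, 22.3 and 12.4 CPM in the knockouts and 25.0, 25.8 and 29.8 CPM in the controls. Its groups did not overlap either, and its log2 fold change was smaller, at -0.55 (95% interval -1.15 to 0.05, edgeR adjusted p = 0.249). Sox6 had 2.79, 2.16 and 1.14 CPM in the knockouts, against 1.68, 12.6 and 11.3 CPM in the controls, so that control 1 lay inside the knockout range (log2 fold change -2.02, edgeR adjusted p = 0.184).

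Runx2, Runx3 and Sp7 showed the same split among controls. Runx2 was at 6.44, 4.48 and 5.17 CPM in knockouts, against 4.09, 35.3 and 28.0 CPM in controls (log2 fold change -1.998, edgeR adjusted p = 0.181). Runx3 was at 2.12, 1.63 and 1.30 CPM in knockouts, against 0.740, 12.7 and 9.41 CPM in controls (log2 fold change -2.11, edgeR adjusted p = 0.199). For both Runx genes control 1 was the lowest of all 6 libraries, while controls 2 and 3 were the highest. Sp7 was at 3.25, 1.05 and 0.505 CPM in knockouts, against 0.986, 24.1 and 23.5 CPM in controls (log2 fold change -3.30, SE 1.05, edgeR adjusted p = 0.181), and control 1 again lay inside the knockout range. Dlx5 had 9.55, 4.53 and 4.25 CPM in knockouts and 9.96, 53.2 and 32.8 CPM in controls, which did not overlap by a narrow margin at control 1 (log2 fold change -2.34, edgeR adjusted p = 0.176). Msx2 had 1.85, 0.791 and 0.252 CPM in knockouts and 2.22, 3.75 and 2.15 CPM in controls, without overlap, from 6 to 41 counts in the knockouts (log2 fold change -1.49, edgeR adjusted p = 0.231).

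The mesenchyme factors had higher mean levels in knockouts, without passing the test. Prrx1 had 157, 200 and 228 CPM in knockouts, against 136, 141 and 123 CPM in controls, higher in all 3 knockouts without overlap, with a log2 fold change of 0.59 (95% interval 0.01 to 1.17, edgeR adjusted p = 0.226). Twist1 had 22.9, 28.1 and 43.7 CPM in knockouts and 22.8, 25.6 and 21.3 CPM in controls, with overlap (log2 fold change 0.49, 95% interval -0.22 to 1.21, edgeR adjusted p = 0.337). The direction of Prrx1 and Twist1 was the same with TMM, DESeq2 and upper quartile scaling, but per Pdgfra count both were lower in knockouts, by differences within the spread between libraries (log2 differences -0.03 and -0.17). The median log2 difference per Pdgfra count over all genes tested was -0.62. Per Col1a1 and Col1a2 count both were higher in knockouts without overlap, by 1.20 and 1.06, where the median of all genes was 0.61.

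Controls 2 and 3 were the libraries with 239 and 145 Ly6a counts, so the knockouts were also set against control 1 alone. The lone control was assumed to vary like the knockouts. Against it, 0 of the 10 factors were called, with 0% of genes called in all, and 4 factors changed direction. Sox6 had a log2 fold change of 0.19 (95% interval -1.60 to 1.98), Runx2 of 0.32 (-0.92 to 1.56), Runx3 of 1.11 (-0.85 to 3.06) and Sp7 of 0.59 (-2.05 to 3.23). Sox9 kept its direction at -0.89 (-1.88 to 0.09), as did Dlx5 at -0.79 (-2.11 to 0.53), Msx2 at -1.31, Sox5 at -0.54, Prrx1 at 0.47 and Twist1 at 0.42. Without control 1 edgeR called 6 factors lower, namely Sox9, Sox6, Runx2, Runx3, Sp7 and Dlx5, beside 1.51% of genes called lower and 2.19% in all, with log2 fold changes of -2.41 for Sox9 (edgeR adjusted p = 0.0140) and -2.48 for Runx2 (edgeR adjusted p = 0.0108). Without knockout 1 it called 4, namely Sox9, Dlx5 and Msx2 lower and Prrx1 higher, beside 21.5% of genes. In the authors' deposited table the adjusted p was under 0.05 for 4 factors, Sox9 (0.000209), Sox6 (0.0318), Runx2 (0.0187) and Dlx5 (0.00122), beside 6.40% of the 14910 genes with an adjusted p there. The deposited log2 columns of the same table did not overlap between knockout and control libraries for 8 factors, beside 49.6% of genes, and Prrx1, one of the other two, was lower there in knockouts by 0.27 on average. Those columns conflict with the counts. They placed control 1 above all knockouts for Sox6, Runx2, Runx3 and Sp7, where its CPM lay within or below the knockout range.

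**Figure D3:**
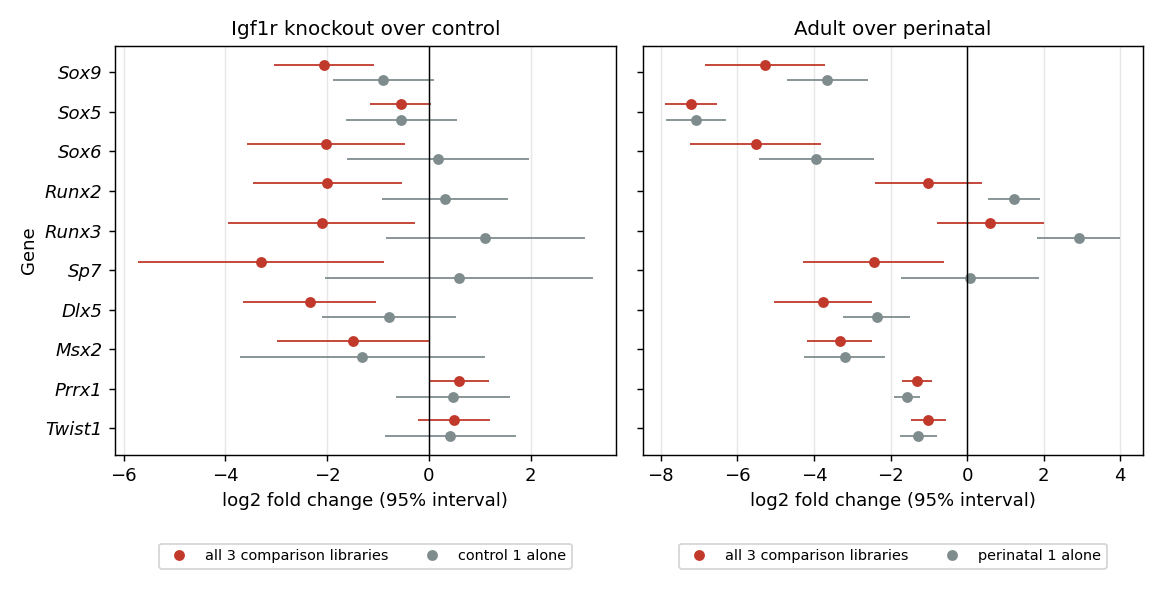
Log2 fold changes (horizontal axis) with 95% intervals for each factor, knockout over control (left) and adult over perinatal (right), against all 3 comparison libraries (red) and against library 1 alone (grey). Runx2 and Sp7 lie left of 0 in red and right of 0 in grey in both panels, at 0.32 and 0.59 in grey for the knockout and 1.23 and 0.09 for age.

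The target lists had 0 called genes in the knockout comparison with edgeR. All 15 Sox trio targets (median log2 change -4.46) and 12 of 15 Runx2 and Sp7 targets (median -2.78) reached an unadjusted edgeR p under 0.05. Of all genes tested 21.8% did so, and their median log2 change was -0.03. Summed over the 15 Sox trio targets, knockouts 1, 2 and 3 held 1241, 771 and 633 CPM, against 1254, 10470 and 11670 CPM in controls 1, 2 and 3. Control 1 thus stood near knockout 1 in cartilage transcripts as well. Col2a1, the main collagen of cartilage, averaged 61.0 ± 35.6 CPM in knockouts and 2702 ± 2280 CPM in controls (SD, n = 3 each). Erythroid transcripts were lower in the knockouts, with 4 of 9 genes called lower, where 5 of all 13590 genes tested (0.0368%) were called. Their summed levels were 157 to 249 CPM in knockouts and 1244 to 1668 CPM in controls. Control 1 was not set apart in these, at 1244 CPM. The part of erythroid transcripts in the changes of the 10 factors was not tested.

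Across the 6 libraries of the knockout table, likeness was measured as the root mean square difference of centred log2(CPM + 1) values among 8390 genes with a mean of at least 10 CPM. Runx2 and Runx3 were each other's nearest among the 10 factors, at 0.171, and Zfp185 was closest to both, at 0.103 for Runx2 and 0.159 for Runx3. The genes most like Sox6 were the tendon factor Mkx (0.124) and Acan, which encodes the cartilage proteoglycan aggrecan (0.142). Sp7 was most like Ifitm5 (0.294), Dlx5 most like Scx (0.280), and Sox9 most like Lbhd2 (0.138). Sox5 was most like Cenpa (0.0569), Msx2 like Tspan18 (0.110), Prrx1 like Mrps31 (0.0138) and Twist1 like Cenpw (0.0362). Over the 6 adult and perinatal libraries, Runx2 and Runx3 were again each other's nearest of the 10 factors. They lay further apart there, at 0.733, with F11r (0.251) closest to Runx2 and Fads2 (0.257) closest to Runx3. Such values describe 6 libraries each, and the comparisons share libraries.

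In adult cells, 8 of the 10 factors fell and 0 rose relative to perinatal cells, in a comparison where most genes changed. Sox5, Sox6 and Sox9 fell the most, Dlx5 and Msx2 followed, Sp7, Prrx1 and Twist1 fell by less, and Runx2 and Runx3 were not called. Of the 13757 genes tested with edgeR, 39.7% were called lower, 37.4% higher and 77.1% in all, and the groups did not overlap for 7 factors beside 81.2% of genes. At an unadjusted p under 0.05 there were 8 factors, beside 78.7% of genes, and DESeq2 called 8 lower, beside 36.8% of genes lower and 69.5% in all. The median log2 change of the 10 factors was -2.88, against -0.06 over all genes. Age and labelled sort gate (PDGFRa+CD51+ against PDGFRa+Sca1+) differed together and cannot be told apart. Perinatal libraries 2 and 3 are the ones with 239 and 145 Ly6a counts in the other tables, so whether their cells were Sca1-positive as labelled is in doubt. Adult libraries were rich in macrophage transcripts, with all 15 macrophage markers called higher, beside 37.4% of genes. These markers summed to 27870 to 31470 CPM in adult cells, against 29.6 to 39.4 CPM in perinatal cells. Pdgfra, the gate gene common to both groups, had 262, 228 and 193 counts in adult libraries 1, 2 and 3, against 4136, 4075 and 4002 counts in perinatal libraries 1, 2 and 3. These levels go against a purely stromal label for the adult libraries, and the part of macrophage transcripts in the changes below was not tested.

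**Figure D4:**
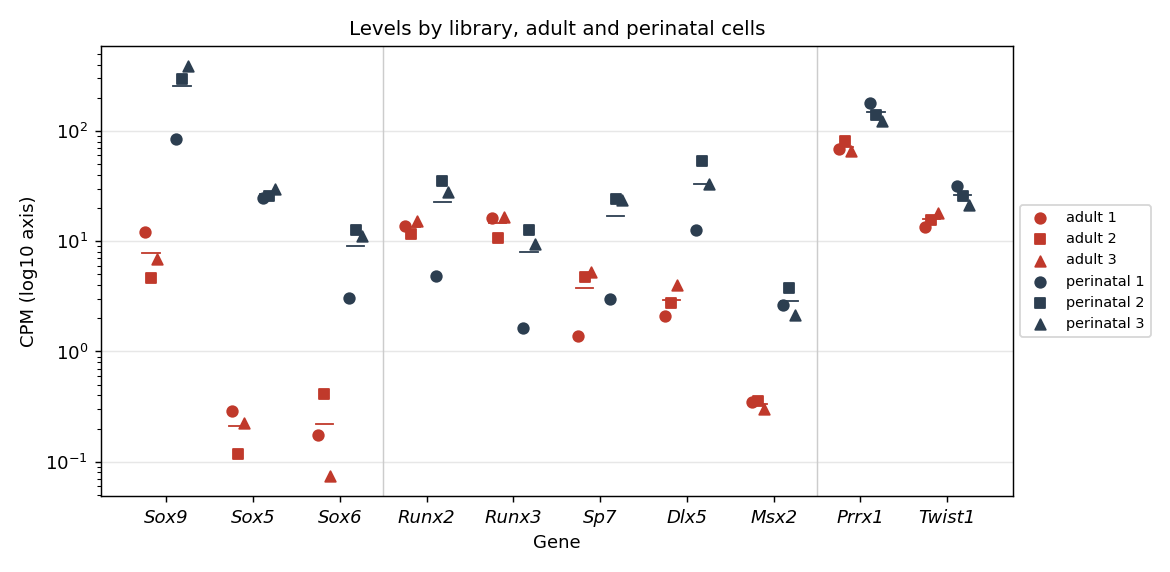
CPM of each factor (vertical axis, log10 scale) in adult (red) and perinatal (blue) libraries 1, 2 and 3, with horizontal bars at the group means. Sox5 shows the widest gap, with adult points at 0.118 to 0.289 CPM and perinatal points at 24.8 to 29.8 CPM, while Runx2 and Runx3 overlap.

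Sox9 was at 12.2, 4.65 and 6.86 CPM in adult libraries, against 83.9, 296 and 386 CPM in perinatal libraries. Every adult library lay below every perinatal one, and the log2 fold change was -5.28 (SE 0.67, edgeR adjusted p = 0.000209). Sox5 had 0.289, 0.118 and 0.224 CPM in adult cells, from 5, 2 and 3 counts, against 24.8, 25.7 and 29.8 CPM in perinatal cells. The adult values lay near the floor of 3 counts, so the log2 fold change of -7.21 (SE 0.29, edgeR adjusted p = 1.11e-06) is loosely bounded on the adult side. Sox6 had 0.174, 0.412 and 0.0746 CPM in adult cells, from 3, 7 and 1 counts, against 3.04, 12.6 and 11.3 CPM in perinatal cells. It did not overlap between the groups, with a log2 fold change of -5.52 (SE 0.73, edgeR adjusted p = 0.000272).

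Runx2 was at 13.7, 11.7 and 15.4 CPM in adult cells, against 4.86, 35.3 and 28.0 CPM in perinatal cells. The adult values lay between perinatal 1 and the other two perinatal libraries, and the log2 fold change of -1.01 (95% interval -2.41 to 0.38) was not called (edgeR adjusted p = 0.155). Runx3 was at 16.4, 10.8 and 16.5 CPM in adult cells, against 1.62, 12.7 and 9.41 CPM in perinatal cells. It was the sole factor with a positive log2 fold change, 0.61 (95% interval -0.80 to 2.01, edgeR adjusted p = 0.379), and the groups overlapped. Against perinatal 1 alone, where 74.4% of genes were called and the lone perinatal library was assumed to vary like the adult ones, Runx2 was called higher in adult cells (log2 fold change 1.23, edgeR adjusted p = 0.00797), as was Runx3 (2.92, edgeR adjusted p = 0.00175). Without perinatal 1, where 81.4% of genes were called, Runx2 was called lower instead (log2 fold change -1.48, edgeR adjusted p = 7.9e-05). Runx3 was not called without perinatal 1 (log2 fold change 0.14, edgeR adjusted p = 0.605) or without any other single library.

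Sp7 had 1.39, 4.77 and 5.22 CPM in adult cells, against 2.97, 24.1 and 23.5 CPM in perinatal cells. Perinatal 1 lay inside the adult range, and the call, at a log2 fold change of -2.44 (SE 0.79, edgeR adjusted p = 0.0225), was lost without adult 1 (edgeR adjusted p = 0.0644), adult 2 (0.0662), perinatal 2 (0.0670) or perinatal 3 (0.0608). Against perinatal 1 alone its log2 fold change was 0.09 (edgeR adjusted p = 0.919). Dlx5 had 2.08, 2.77 and 4.03 CPM in adult cells and 12.6, 53.2 and 32.8 CPM in perinatal cells. No adult library reached the lowest perinatal one, and the log2 fold change was -3.75 (SE 0.55, edgeR adjusted p = 0.000445). Msx2 had 0.347, 0.353 and 0.298 CPM in adult cells, from 6, 6 and 4 counts, against 2.63, 3.75 and 2.14 CPM in perinatal cells, and it fell without overlap (log2 fold change -3.33, SE 0.37, edgeR adjusted p = 9.44e-05).

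Among the mesenchyme factors, Prrx1 was at 69.4, 81.8 and 65.4 CPM in adult cells, against 179, 141 and 123 CPM in perinatal cells. All adult libraries were lower, with a log2 fold change of -1.30 (SE 0.17, edgeR adjusted p = 0.000218). Twist1 was at 13.5, 15.6 and 18.1 CPM in adult cells, against 32.0, 25.6 and 21.3 CPM in perinatal cells, also without overlap (log2 fold change -1.01, SE 0.19, edgeR adjusted p = 0.00196). Both had smaller changes than the Sox trio, a difference that was not tested.

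The factors were also set against Pdgfra, the transcript of the shared gate. Pdgfra itself fell in adult cells, with a log2 fold change of -4.47 (SE 0.15, edgeR adjusted p = 6.54e-07), so dividing by it raises every gene alike. On the log2 scale with 0.5 added to each count, 7 of the 10 factors had a higher mean per Pdgfra count in adult than in perinatal cells, beside 92.9% of all genes tested, and 6 did not overlap, beside 95.3%. The median log2 difference per Pdgfra was 1.80 over the 10 factors and 4.42 over all genes tested, so the change of sign from CPM follows from the denominator. Per count of Col1a1 and Col1a2, which also fell in adult cells, 7 factors were higher, beside 92.1% of genes. Prrx1 had 454 to 609 counts per 100 Pdgfra counts in adult cells and 44.3 to 64.2 in perinatal cells. Twist1 had 89.3 to 126 in adult cells and 7.70 to 11.5 in perinatal cells. Neither gene overlapped, and the lowest adult library was above the highest perinatal one. Runx2 had 86.8 to 107 in adult cells and 1.74 to 15.0 in perinatal cells. Runx3 had 80.3 to 115 in adult cells and 0.580 to 5.40 in perinatal cells. These Runx ratios were separate as well, whereas the CPM of both genes overlapped. Sox5 stayed lower per Pdgfra without overlap, at 0.877 to 1.91 in adult cells and 8.87 to 10.9 in perinatal cells, while Sox9 (34.6 to 80.2 in adult, 30.1 to 139 in perinatal cells) and Sox6 overlapped. These ratios carry no test, and their denominators were 193 to 262 Pdgfra counts in adult cells and 4002 to 4136 in perinatal cells.

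**Figure D5:**
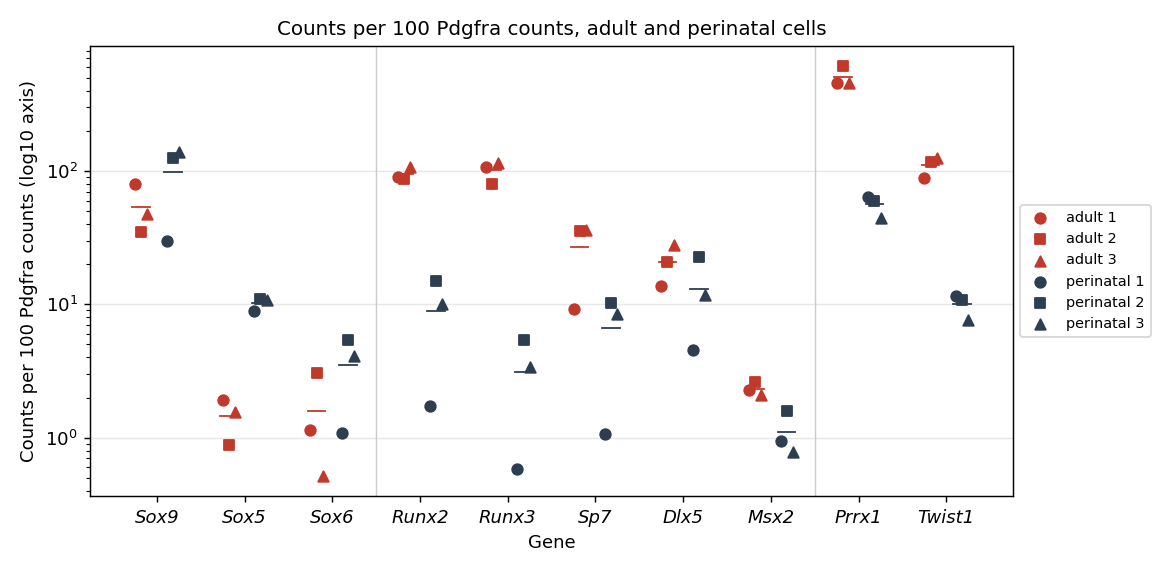
Counts of each factor per 100 Pdgfra counts (vertical axis, log10 scale) in adult (red) and perinatal (blue) libraries 1, 2 and 3, with horizontal bars at the group means. Runx2, Runx3, Prrx1 and Twist1 are higher in all adult libraries, Prrx1 at 454 to 609 against 44.3 to 64.2, and Sox5 is lower in all of them. The denominator, Pdgfra, was itself lower in adult cells.

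In the other comparisons 0 of the 10 factors had a higher mean per Pdgfra count, beside 17.5% of genes in cells labelled Sca1-negative and 17.9% in knockout cells. Pdgfra averaged 332 ± 0.857 CPM in cells labelled Sca1-negative and 253.5 ± 33.7 CPM in cells labelled Sca1-positive (SD, n = 2 each). It averaged 385 ± 49.5 CPM in knockout cells and 255 ± 28.2 CPM in control cells (SD, n = 3 each), and was called in neither comparison. Per Col1a1 and Col1a2 count, 4 factors were higher in cells labelled Sca1-negative, beside 88.7% of genes, and 3 in knockout cells, beside 77.0%. Sp7 had 0.203 to 0.304 counts per 100 Pdgfra counts in cells labelled Sca1-negative and 8.50 to 10.2 in cells labelled Sca1-positive. Prrx1 was almost level in both comparisons, at 46.5 in both libraries labelled Sca1-negative and 44.3 to 60.0 in cells labelled Sca1-positive, and at 44.0 to 56.1 in knockout and 44.3 to 60.0 in control cells.

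By length-scaled level, adult cells held Prrx1 first at 31.5 ± 1.06 TPM, then Twist1 at 15.4 ± 2.36, Runx3 at 9.13 ± 5.15 and Runx2 at 7.10 ± 0.576 TPM (SD, n = 3), where the ranges of Twist1 and Runx3, and of Runx3 and Runx2, overlapped. Sox5 and Sox6 came last, at 0.0629 ± 0.0271 and 0.0533 ± 0.0239 TPM. In perinatal cells Sox9 came first at 114 ± 72.3 TPM, with a range that overlapped that of Prrx1 at 51.9 ± 4.06 TPM (SD, n = 3), and Sox6 was last at 1.49 ± 0.861 TPM.

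Target genes of the factors were mostly lower in adult cells. All 14 tested Sox trio targets were called lower, with a median log2 change of -10.55, against -0.06 over all genes. Col9a1, Col9a2, Hapln1, Cnmd and Cytl1 were at 0 CPM in adult cells, and Acan, Matn3 and Ucma averaged 0.0174 CPM. These passed the filter through the perinatal libraries, so the size of that median reflects the floor. Summed over the list, perinatal libraries 1, 2 and 3 held 1297, 10460 and 11660 CPM. Of 14 tested Runx2 and Sp7 targets, 11 were called lower and 0 higher, with a median of -4.41. Comp, a cartilage matrix protein, averaged 2.34 ± 0.962 CPM over adult libraries and 842 ± 349 CPM over perinatal libraries (SD, n = 3 each). Col1a1, the main collagen of bone, averaged 1861 ± 524 CPM over adult libraries and 42660 ± 10200 CPM over perinatal ones. Of all genes tested, 39.7% were called lower and 37.4% higher. Beside these shares, 13 of 14 mesenchyme factors were called lower and 1 higher, and 12 of 17 other bone and cartilage factors were called lower. Among relatives, 7 of 9 in the Dlx, Msx, Prrx and Twist list were called lower. Of 7 Sox relatives, 5 were called lower and 1 higher. Partners and modulators of Runx proteins were mixed, with 6 lower and 5 higher of 12, near the shares of all genes. Twist2, the close relative of Twist1, fell by 5.08 on the log2 scale (SE 0.38, edgeR adjusted p = 1.36e-05). Globin genes, which mark red blood cells, were at 0 in all adult libraries, and the 9 erythroid genes summed to 0.522 to 1.10 CPM in adult cells and 772 to 1666 CPM in perinatal cells.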

How the data were processed

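The authors deposited 3 tables, one per comparison, with raw counts per gene and library. Trimming was with Trimmomatic 0.32, and the submitters' processing notes also name the build mm10 and DESeq2. Aligner, counter and strand setting are not stated in those notes or the labels. TPM columns of the adult and Sca1 tables are the authors' own, as deposited. Columns headed tpm in the deposited knockout table hold values on a log2 scale and entered no test. The authors' log2 fold change and adjusted p-value come from their deposited tables, per the file headers, with signs read from the counts.

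Each table was fitted by itself with edgeR 4.0.16 in R 4.3.3 (filterByExpr, TMM scaling, robust glmQLFit, glmQLFTest), the group as the only term, and Benjamini-Hochberg adjustment over all genes tested. Calls were made below an adjusted p of 0.05. The standard error is the size of the log2 fold change divided by the square root of F, and intervals are 95%. CPM of single libraries are counts over the library total, and means use TMM-scaled CPM. Total counts per library are given in the report, and floors cover counting error only. The fit was tested on simulated data. Coordinates are from GENCODE M21.

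The 10 factors and all gene lists were chosen with earlier results of these data known. Named were all 10 factors, the gate and target genes, and for each list up to 3 called genes with the smallest adjusted p, or up to 2 with the highest mean CPM where none was called. For likeness the 3 nearest genes of each factor were taken, without predicted genes, and the text gives examples of both. Same-numbered knockout and control libraries deviated together, with correlations of 0.270, 0.118 and 0.104 for numbers 1, 2 and 3, so by the rule of 0.1 in every pair the numbers pair those libraries. Of the 6 libraries, 4 correlated best with their own number. The pairing is in doubt, since it comes from the sample titles, not from a stated litter or day, and the header of the knockout table numbers control 1 as 5. The main knockout fit left the pairing out, and the block was run as an alternative.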

Additional observations from a re-analysis of the deposited data

How the results depend on the processing

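The alternatives were DESeq2 size factors or upper quartile factors in edgeR, no filter, DESeq2, the replicate number as a block, leaving out each library in turn, and library 1 alone as the comparison library. In the Sca1 comparison 6 factors were called under every one of those run, where leaving out a library leaves an arm of 1 that is assumed to vary like the other group, while the genes called numbered 1012 with DESeq2, 1369 with the replicate block and 484 to 4835 with a library left out, against 597. In the knockout comparison 5 factors and 999 genes were called with DESeq2, 0 and 0 with the block and against control 1 alone, and 0 to 6 factors and 0 to 3003 genes with a library left out, against 0 and 5. Per Col1a1 and Col1a2 counts, 4 factors were higher in cells labelled Sca1-negative and 3 in knockouts, against 0 and 0 per Pdgfra. Log2 fold changes that changed sign were, against perinatal 1 alone, Runx2 (1.23) and Sp7 (0.0855), against control 1 alone, Sox6 (0.19), Runx2 (0.32), Runx3 (1.11) and Sp7 (0.59), and in the Sca1 comparison Sox5 (-0.234 to 0.0196 with a library left out) and Twist1 (-0.236 to 0.0790), neither of which was called. The cause was not tested. For age the block gave 8 factors and 10307 genes, against 8 and 10610, and for Sca1 it gave 6 factors; same-numbered libraries correlated at -0.04, -0.02 and 0.25 for age, where 2 of 6 libraries correlated best with their own number, so the numbers are not taken to pair these samples. In the Sca1 table the value was 0.37 for both pairs, which 2 libraries a group make equal, and 4 of 4 libraries correlated best with their own number; the rule asks for 3 pairs, so this is a hint from the data and not the design. The block changed no other call of a factor. Upper quartile scaling moved the median of all genes to -0.19 for age, against -0.06. Log2 fold changes of single factors kept their direction and side of the threshold in 112 of 120 values under alternatives for age, 87 of 90 for Sca1 and 101 of 120 for the knockout. Sox5, Sox6 and Msx2 in adult cells rest on 1 to 7 counts per library, which limits their fold changes. The Sca1 comparison could not be run without the libraries whose Ly6a went against the label, since they form a whole group.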

Other observations

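In the columns headed tpm of the deposited knockout table, which hold log2 values, Sp7 averaged 0.425 ± 0.547 in knockouts and 3.04 ± 0.880 in controls (SD, n = 3 each), and Runx2 averaged 1.26 ± 0.469 in knockouts and 2.95 ± 0.635 in controls. These values conflict with the counts of the same libraries. Control 1 stood there at 2.04 for Sp7 and 2.22 for Runx2, above knockout 1 at 1.03 and 1.80. By CPM the order was the reverse, at 0.986 and 4.09 in control 1 and 3.25 and 6.44 in knockout 1. The cause was not tested, and the split in these columns is not taken as support.

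For Runx2 in the age comparison, the group means were closer on the authors' TPM than on counts. They were 7.10 ± 0.576 TPM in adult and 6.71 ± 4.72 TPM in perinatal cells (SD, n = 3 each). Perinatal libraries 1, 2 and 3 stood at 1.31, 10.1 and 8.74 TPM. On both scales the adult libraries lay between perinatal 1 and perinatal 2 and 3, and the change in counts was not called. The count carried by 1 TPM, which depends on the transcript length used, was 0.681 times as large in adult as in perinatal cells for Runx2, relative to all genes, and 11.8% of 9294 genes lay as far from equality. For Twist1, which has 1 annotated transcript, the same ratio was 1.65, with 7.37% of genes as far. The cause of these ratios was not tested.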
